A study of Homo sapiens with 6 samples.

Results

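The genes of cholesterol and fatty acid synthesis, with their regulators and sterol transporters, were followed in ACHN, an established human line from a renal carcinoma, after OTUD1 was targeted with a small interfering RNA (siRNA). The members are 42 genes chosen by name for their role, of 58735 rows in the count table. They comprise 20 enzymes of sterol synthesis, 12 genes of fatty acid synthesis and activation, and 10 regulators and transport genes. GGPS1, which serves protein prenylation, is counted among the 20 sterol enzymes. All 42 are annotated as protein coding, 41 had enough counts to be tested, and the exception was ABCG1.

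RNA was sequenced from 3 libraries of cells transfected with the OTUD1 siRNA (si01) and 3 libraries of cells transfected with a control siRNA (NC). Both groups are the same unmodified line, the labels name a single OTUD1 siRNA, and the time of harvest is not given in the labels. OTUD1 encodes a deubiquitinase, which takes ubiquitin off its substrates. Separate cultures are not named in the labels, so each p-value reflects the spread between these libraries alone, and that spread may be technical.

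Cells make cholesterol from acetyl-CoA through mevalonate, isoprenoids, squalene and lanosterol, and they make fatty acids from the same acetyl-CoA through malonyl-CoA. Transcription of both pathways is driven by SREBP proteins, which SCAP escorts out of the endoplasmic reticulum when sterols are low and which INSIG proteins hold back when sterols are high. Oxysterols act through the LXR receptors, which raise cholesterol efflux genes such as ABCA1. Many kidney tumours of the clear cell type are known for stored lipid droplets rich in cholesterol esters.

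Levels are given as CPM, the count of a gene relative to the total of its library, after TMM scaling, a correction for library composition. Each fold change sets OTUD1 siRNA over control siRNA. Total counts per library were 17243433 to 21013530 in the OTUD1 siRNA group and 16753495 to 18993534 in the control siRNA group. OTUD1 itself was at 1.28, 0.844 and 1.39 CPM in the OTUD1 siRNA libraries, against 3.82, 3.69 and 3.80 CPM in the control libraries, and fell 3.22-fold. Of 15244 genes tested, 60.4% passed an adjusted p of 0.05 (edgeR quasi-likelihood test, Benjamini-Hochberg), 29.3% as higher and 31.1% as lower. Of the called genes, 48.4% were higher under TMM and 64.2% under scaling to library totals, which moved the median log2 fold change of all genes to 0.13, against 0.0056 under TMM. The renal epithelial markers PAX8, PAX2, KRT8, KRT18 and LHX1 fell, and the summed level of the 9 markers checked ran from 3112 to 3224 CPM in the OTUD1 siRNA libraries, against 6343 to 6544 CPM in the control libraries. KRT8 and KRT18 made up most of this sum, averaging 1957 and 726 CPM in the OTUD1 siRNA libraries and 4112 and 1604 CPM in the control libraries. Of the 9 markers, EPCAM rose, CDH1 and CDH16 did not pass the test and CDH6 had no count. Markers of leukocytes, endothelium, fibroblasts, hepatocytes and adipocytes summed to 5.66 to 7.20 CPM in the OTUD1 siRNA libraries and 4.57 to 6.48 CPM in the control libraries over 12 genes, with PTPRC, CD3E, LYZ and ADIPOQ at 0 counts. COL1A1 and CD14 made up most of this sum and did not pass the test. COL1A1 averaged 5.08 CPM in OTUD1 siRNA and 3.94 CPM in control libraries, and CD14 0.898 and 1.41 CPM. Whether the change in renal markers has a part in the lipid gene results was not tested, and in bulk RNA fewer cells of a kind cannot be told apart from less RNA per cell.

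Lipid genes moved in both directions. Of the 41 members tested, 14 rose and 15 fell, together 70.7%, set against the 60.4% of all genes. With library totals 19 rose and 14 fell, and after quantile normalization 18 rose and 14 fell. Of 20 sterol synthesis genes, 9 rose, 3 fell and 8 did not pass the test, while of 12 fatty acid genes 2 rose, 8 fell and 2 did not pass. With library totals or quantile normalization 7 fatty acid genes were down and 3 up, with ACACA passing as higher. FASN lost its call there and turned its sign. Among 9 regulators and transport genes tested, 3 rose (33.3%) and 4 fell (44.4%), beside 29.3% and 31.1% of all genes. MYLIP was 2.70-fold higher and INSIG2 2.19-fold lower. The largest decrease of all members was that of ELOVL6, 2.60-fold.

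The median log2 fold change was 0.036 for sterol synthesis, -0.40 for fatty acid genes and -0.037 for regulators and transport genes, and 0.0056 for all genes tested. The share of sterol genes that rose was 45.0%, beside 29.3% of all genes, and the share of fatty acid genes that fell was 66.7%, beside 31.1% of all genes. Called members had a median absolute log2 fold change of 0.42, and all called genes one of 0.47. All 29 called members had groups that did not overlap. MSMO1, NSDHL and SREBF2 did not overlap either but did not pass the test, so that 78.0% of tested members had separate groups, against 64.5% of all genes. No test of the groups against each other was made, and these counts and medians are a description.

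**Figure D1:**
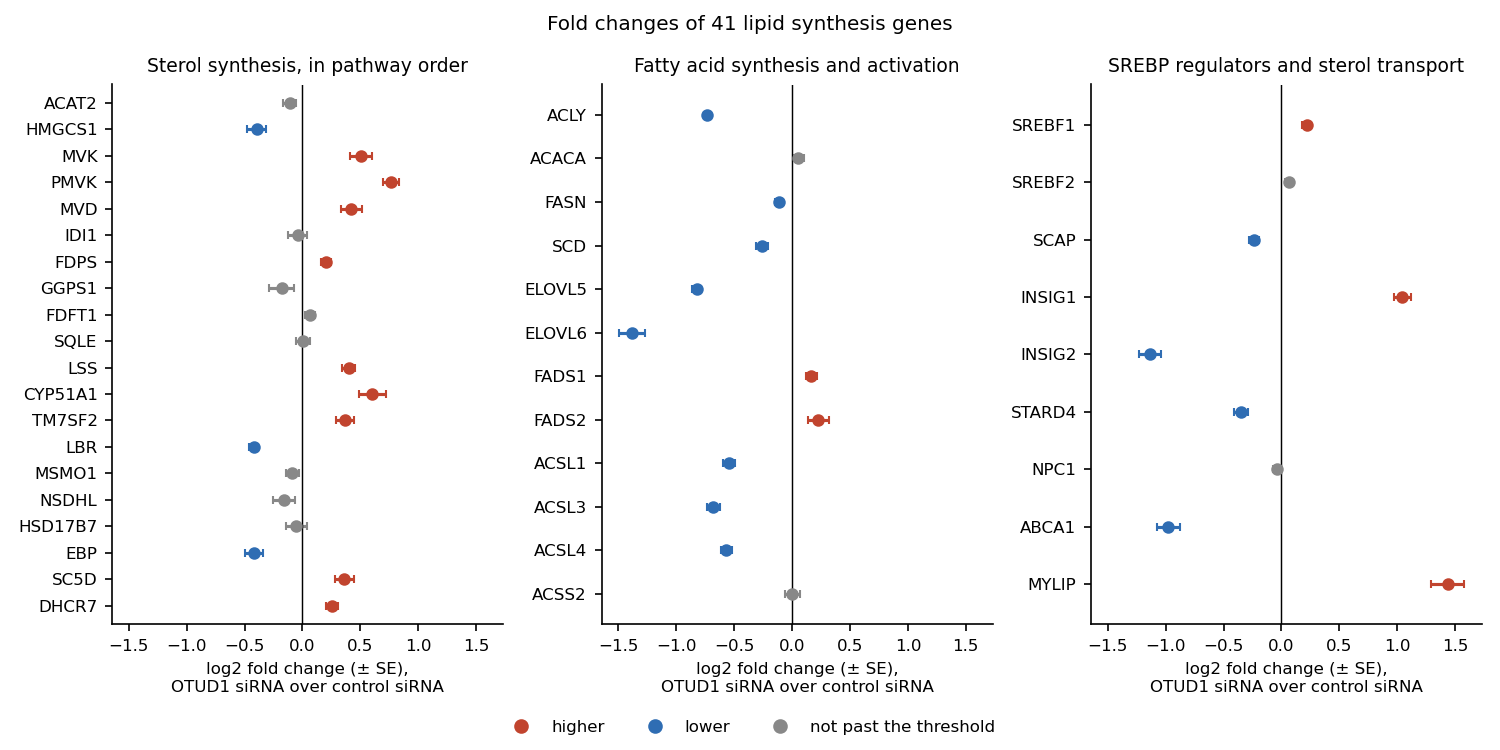
Log2 fold change (x axis, OTUD1 siRNA over control siRNA, ± SE) of the 41 members tested, with sterol enzymes in pathway order. Red points are the 14 higher genes, blue points the 15 lower genes and grey points the 12 that did not pass the adjusted p of 0.05; most fatty acid genes lie left of 0, and INSIG1 and INSIG2 lie on opposite sides.

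**Figure D2:**
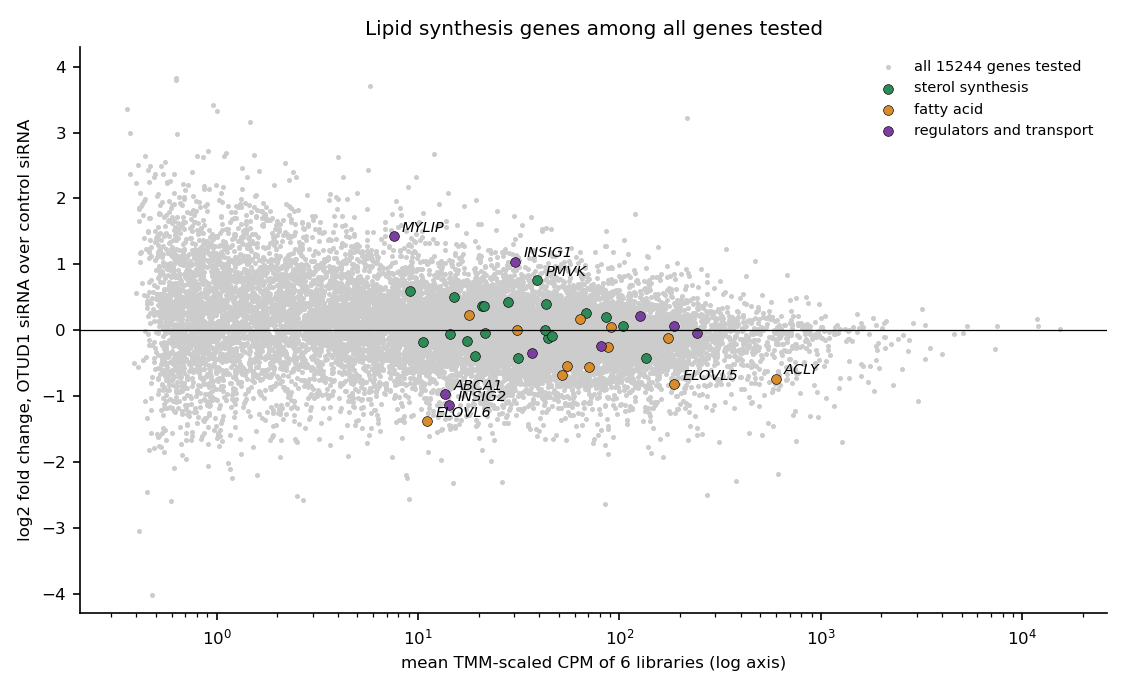
Log2 fold change (y axis, OTUD1 siRNA over control siRNA) against mean TMM-scaled CPM of the 6 libraries (log x axis) for the 15244 genes tested, with the members coloured by group. The y axis stops at 4.3 and leaves out 1 gene; MYLIP, INSIG1 and PMVK stand highest among the members and ELOVL6, INSIG2 and ABCA1 lowest.

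INSIG1 and INSIG2 encode related membrane proteins of the endoplasmic reticulum that retain SCAP and SREBP there, and their mRNAs moved in opposite directions. INSIG1 (ENSG00000186480.12, hg38 chr7:155297776-155310235, plus strand) had 42.5, 42.2 and 38.0 CPM in the OTUD1 siRNA libraries, against 19.7, 21.5 and 18.3 CPM in the control libraries. Every OTUD1 siRNA library was far above every control library, and INSIG1 rose 2.06-fold (log2 fold change 1.04, SE 0.072, adjusted p = 3.57e-13). INSIG2 (ENSG00000125629.14, hg38 chr2:118088452-118110997, plus strand) had 8.84, 8.89 and 9.11 CPM in the OTUD1 siRNA libraries, against 19.1, 19.3 and 20.4 CPM in the control libraries. Here every OTUD1 siRNA library was below every control library, and INSIG2 fell 2.19-fold (log2 fold change -1.13, SE 0.094, adjusted p = 1.63e-11).

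Levels of the pair can be compared only per length, here as CPM per kilobase of merged annotated exon. INSIG1 averaged 11.2 ± 0.685 and INSIG2 2.27 ± 0.0363 CPM per kilobase in OTUD1 siRNA libraries (SD, n = 3). In control libraries they were at near-equal levels, INSIG1 at 5.44 ± 0.439 and INSIG2 at 4.97 ± 0.182 CPM per kilobase. The ratio of INSIG1 to INSIG2 was 5.20, 5.13 and 4.51 in the OTUD1 siRNA libraries, against 1.12, 1.21 and 0.971 in the control libraries. Their sum was 13.9, 13.8 and 12.7 CPM per kilobase after OTUD1 siRNA, against 10.2, 10.8 and 10.2 in controls, so the composition of the pair shifted more than its total.

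The promoters of this pair and of SREBF2 are shown because the pair moved apart and because SREBF2 held the 1 match to the SREBP element searched. INSIG1 is known as an SREBP target. The windows run from 250 bases before to 50 bases after the start that RefSeq gives on GRCh38.p14. This start differs from the GENCODE gene starts printed above for INSIG1 and INSIG2. The windows read 5′ to 3′ on the plus strand, which carries all 3 genes. Capitals mark TCACNCCAC (a form of the sterol regulatory element), CCAAT (the NF-Y box) and CACGTG (the palindromic E-box), of which TCACNCCAC and CCAAT were searched on both strands. They lie at chr7:155297628-155297927 (INSIG1), chr2:118088221-118088520 (INSIG2) and chr22:41832855-41833154 (SREBF2).
INSIG1: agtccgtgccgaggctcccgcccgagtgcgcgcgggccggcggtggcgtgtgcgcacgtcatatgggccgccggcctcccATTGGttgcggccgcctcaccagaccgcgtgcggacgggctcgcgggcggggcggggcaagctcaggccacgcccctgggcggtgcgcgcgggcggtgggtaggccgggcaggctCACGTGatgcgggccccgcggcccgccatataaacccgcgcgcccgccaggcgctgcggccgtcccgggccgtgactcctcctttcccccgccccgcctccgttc
INSIG2: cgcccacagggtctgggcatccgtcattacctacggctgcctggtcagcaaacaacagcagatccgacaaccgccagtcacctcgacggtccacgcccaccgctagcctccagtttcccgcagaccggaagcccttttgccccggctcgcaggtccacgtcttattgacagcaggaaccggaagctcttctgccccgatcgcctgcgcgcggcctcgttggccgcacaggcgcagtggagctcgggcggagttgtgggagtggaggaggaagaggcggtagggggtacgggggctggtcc
SREBF2: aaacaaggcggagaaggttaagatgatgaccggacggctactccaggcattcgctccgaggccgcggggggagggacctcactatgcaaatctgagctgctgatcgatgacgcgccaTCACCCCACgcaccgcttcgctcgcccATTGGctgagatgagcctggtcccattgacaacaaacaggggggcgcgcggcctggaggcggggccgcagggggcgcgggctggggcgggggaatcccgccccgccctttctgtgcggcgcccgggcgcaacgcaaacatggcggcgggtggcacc

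INSIG1 had a CCAAT box on the minus strand at position -170 and an E-box at -55, counted from the RefSeq start. The INSIG2 window had none of the 3 marked motifs. SREBF2 had TCACCCCAC at position -133 and a CCAAT box on the minus strand at -106. A RefSeq promoter was matched for 37 of the 42 members and for 10611 of the genes tested. TCACNCCAC occurred in 1 of the 37 (2.70%) and in 1.03% of the tested genes' promoters. CCAAT occurred in 21 of 37 members' promoters (56.8%), in 12 of 17 sterol synthesis promoters (70.6%) and in 36.2% of all. Of members that rose, 9 of 14 had a CCAAT box, and of members that fell, 7 of 14 with a promoter. CACGTG was in 6 of 37 (16.2%) against 10.2% of all, and the GC box GGGCGG in 32 of 37 (86.5%) against 70.6%. No match of a motif overlapped one of another. A match is a description of the letters and does not show binding.

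SREBF1, which encodes SREBP-1, the form known mainly for fatty acid genes, had 136, 138 and 134 CPM in the OTUD1 siRNA libraries, against 121, 114 and 116 CPM in the control libraries. It rose 1.16-fold (log2 fold change 0.22, SE 0.039, adjusted p = 1.69e-05), a small difference with no overlap between the groups. SREBF2, which encodes SREBP-2, the form known mainly for sterol genes, had 191, 190.0 and 189.8 CPM in the OTUD1 siRNA libraries, against 183, 179 and 183 CPM in the control libraries. Its log2 fold change of 0.067 (95% interval -0.0031 to 0.14) did not pass the test (adjusted p = 0.0926), but it passed as higher with library totals, quantile normalization or a minimum mean of 5 CPM (0.12 to 0.21). SCAP, the SREBP escort protein, had 74.3, 73.9 and 73.8 CPM in the OTUD1 siRNA libraries, against 91.4, 82.5 and 88.1 CPM in the control libraries, and fell 1.18-fold (adjusted p = 6.73e-05).

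**Figure D3:**
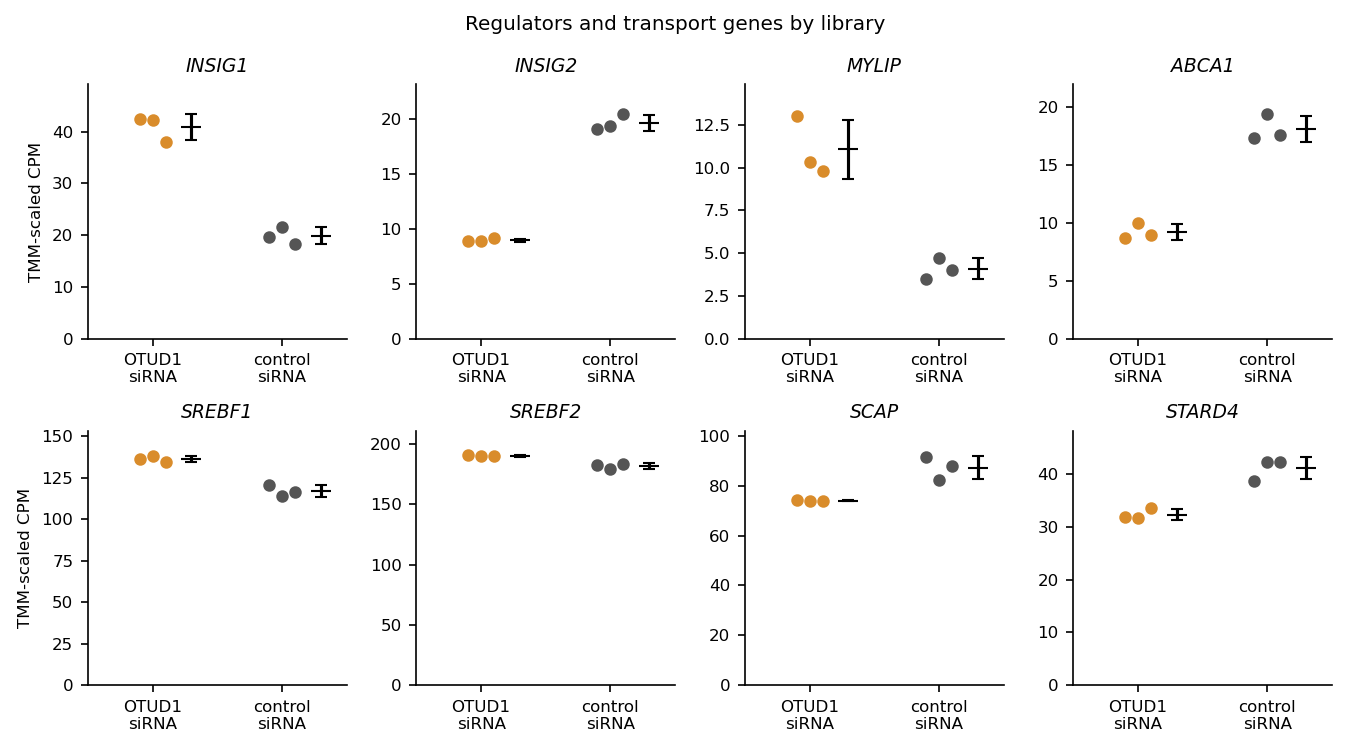
TMM-scaled CPM (y axis, from 0) of 8 regulators and transport genes in each OTUD1 siRNA library (orange) and control siRNA library (grey), with mean and SD of the 3 libraries in black. INSIG1 and MYLIP are higher and INSIG2, ABCA1, SCAP and STARD4 lower in all 3 OTUD1 siRNA libraries; the differences of SREBF1 and SREBF2 are small.

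Among transport genes, MYLIP and ABCA1, both known LXR targets, moved in opposite directions. MYLIP (ENSG00000007944.14, hg38 chr6:16129125-16148248, plus strand) encodes a ubiquitin ligase that marks lipoprotein receptors for breakdown. It had 13.0, 10.3 and 9.83 CPM in the OTUD1 siRNA libraries, against 3.50, 4.74 and 4.03 CPM in the control libraries, where its lowest count was 56. MYLIP rose 2.70-fold (log2 fold change 1.43, SE 0.14, adjusted p = 7.78e-10), the largest increase of the members, and OTUD1 siRNA replicate 1 was the highest library. ABCA1 (ENSG00000165029.15, hg38 chr9:104781002-104928237, minus strand), the transporter that loads cholesterol onto apolipoproteins, had 8.71, 10.0 and 8.94 CPM in the OTUD1 siRNA libraries, against 17.3, 19.4 and 17.6 CPM in the control libraries. It fell 1.97-fold (log2 fold change -0.97, SE 0.099, adjusted p = 1.15e-09), with the groups far apart.

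STARD4, a cytosolic sterol carrier, had 31.8, 31.7 and 33.5 CPM in the OTUD1 siRNA libraries, against 38.7, 42.3 and 42.3 CPM in the control libraries, and fell 1.27-fold (adjusted p = 1.58e-05). NPC1, which exports cholesterol from lysosomes, was among the more abundant members at 23.9 ± 0.650 CPM per kilobase in OTUD1 siRNA libraries and 24.5 ± 0.276 in control libraries. Its log2 fold change of -0.037 (95% interval -0.11 to 0.031) did not pass the test, and it turned to 0.092 with library totals and 0.12 after quantile normalization, where it passed as higher. ABCG1, another sterol efflux transporter, had 8 counts over the OTUD1 siRNA libraries and 7 over the control libraries, too few to test.

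In sterol synthesis, the early mevalonate steps did not move together. HMGCS1, which makes HMG-CoA, had 14.9, 17.5 and 17.7 CPM in the OTUD1 siRNA libraries, against 22.1, 21.4 and 22.3 CPM in the control libraries. It fell 1.32-fold (SE 0.085 on the log2 scale, adjusted p = 0.000199), with all 3 OTUD1 siRNA libraries below the controls. The next enzymes of the path in this list, mevalonate kinase, phosphomevalonate kinase and mevalonate diphosphate decarboxylase, all rose.

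PMVK, the phosphomevalonate kinase, had 47.0, 48.2 and 51.9 CPM in the OTUD1 siRNA libraries, against 31.9, 25.4 and 29.3 CPM in the control libraries. It rose 1.70-fold (log2 fold change 0.77, SE 0.070, adjusted p = 1.19e-10), the largest change among sterol enzymes. MVK, the mevalonate kinase, had 16.4, 17.7 and 19.0 CPM in the OTUD1 siRNA libraries, against 13.1, 11.9 and 12.3 CPM in the control libraries, a 1.42-fold rise. MVD, the decarboxylase, had 34.3, 28.6 and 32.8 CPM in the OTUD1 siRNA libraries, against 27.8, 24.0 and 19.9 CPM in the control libraries, and rose 1.34-fold. The groups of MVD came close, with the lowest OTUD1 siRNA library just above the highest control library.

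At the isoprenoid steps, FDPS, which makes farnesyl diphosphate, averaged 91.6 ± 1.20 CPM in OTUD1 siRNA libraries and 79.5 ± 1.90 CPM in control libraries and rose 1.15-fold. IDI1, which isomerises isopentenyl diphosphate, averaged 21.2 ± 0.860 and 21.9 ± 1.76 CPM in OTUD1 siRNA and control libraries and did not pass. Neither did ACAT2, the cytosolic thiolase (42.4 ± 2.61 against 45.8 ± 2.28 CPM), or GGPS1, which makes geranylgeranyl diphosphate for protein prenylation (9.95 ± 0.660 against 11.3 ± 1.17 CPM). ACAT2 passed as lower without control siRNA replicate 1 (log2 fold change -0.15, against -0.11 with all libraries). FDFT1, the squalene synthase, and SQLE, the squalene epoxidase, had log2 fold changes of 0.067 and 0.0049 that did not pass. For SQLE the 95% interval of the log2 fold change ran from -0.11 to 0.12.

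From lanosterol onwards the changes went both ways. LSS, the lanosterol synthase, had 51.8, 47.2 and 48.7 CPM in the OTUD1 siRNA libraries, against 39.5, 35.5 and 37.4 CPM in the control libraries, and rose 1.32-fold. CYP51A1, the lanosterol demethylase, had 12.03, 10.2 and 10.9 CPM in the OTUD1 siRNA libraries, against 8.07, 6.44 and 7.42 CPM in the control libraries, and rose 1.52-fold (SE 0.12 on the log2 scale). For both enzymes every OTUD1 siRNA library lay above every control library.

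The sterol C14-reductase step is covered by a pair of enzymes, TM7SF2 and LBR, which moved apart. TM7SF2 had 22.6, 24.1 and 23.6 CPM in the OTUD1 siRNA libraries, against 18.7, 17.7 and 18.1 CPM in the control libraries, and rose 1.29-fold (adjusted p = 0.000179). LBR, which is also the lamin B receptor of the nuclear envelope, had 116, 119 and 113 CPM in the OTUD1 siRNA libraries, against 149, 158 and 159 CPM in the control libraries, and fell 1.34-fold (adjusted p = 2.15e-10). Per kilobase, LBR stayed the more abundant, at 22.1 ± 0.569 CPM against 6.87 ± 0.232 CPM for TM7SF2 in OTUD1 siRNA libraries, and at 29.6 ± 1.02 against 5.33 ± 0.145 CPM in control libraries.

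Later in the path, EBP, the sterol isomerase, had 29.6, 27.5 and 23.4 CPM in the OTUD1 siRNA libraries, against 38.9, 34.5 and 34.6 CPM in the control libraries, and fell 1.34-fold. SC5D, the lathosterol desaturase that follows it, had 23.3, 26.6 and 22.3 CPM in the OTUD1 siRNA libraries, against 18.2, 19.9 and 18.1 CPM in the control libraries, and rose 1.28-fold. DHCR7, which reduces 7-dehydrocholesterol, averaged 74.6 ± 1.96 CPM in OTUD1 siRNA libraries and 62.4 ± 3.82 CPM in control libraries and rose 1.20-fold. Neighbouring enzymes of the path thus had opposite signs. The demethylation enzymes MSMO1, NSDHL and HSD17B7 had log2 fold changes of -0.088, -0.16 and -0.053 that did not pass the test. Summed over the 20 enzymes, expression was 831 ± 7.46 CPM in OTUD1 siRNA libraries and 807 ± 14.5 CPM in control libraries (SD, n = 3 each).

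**Figure D4:**
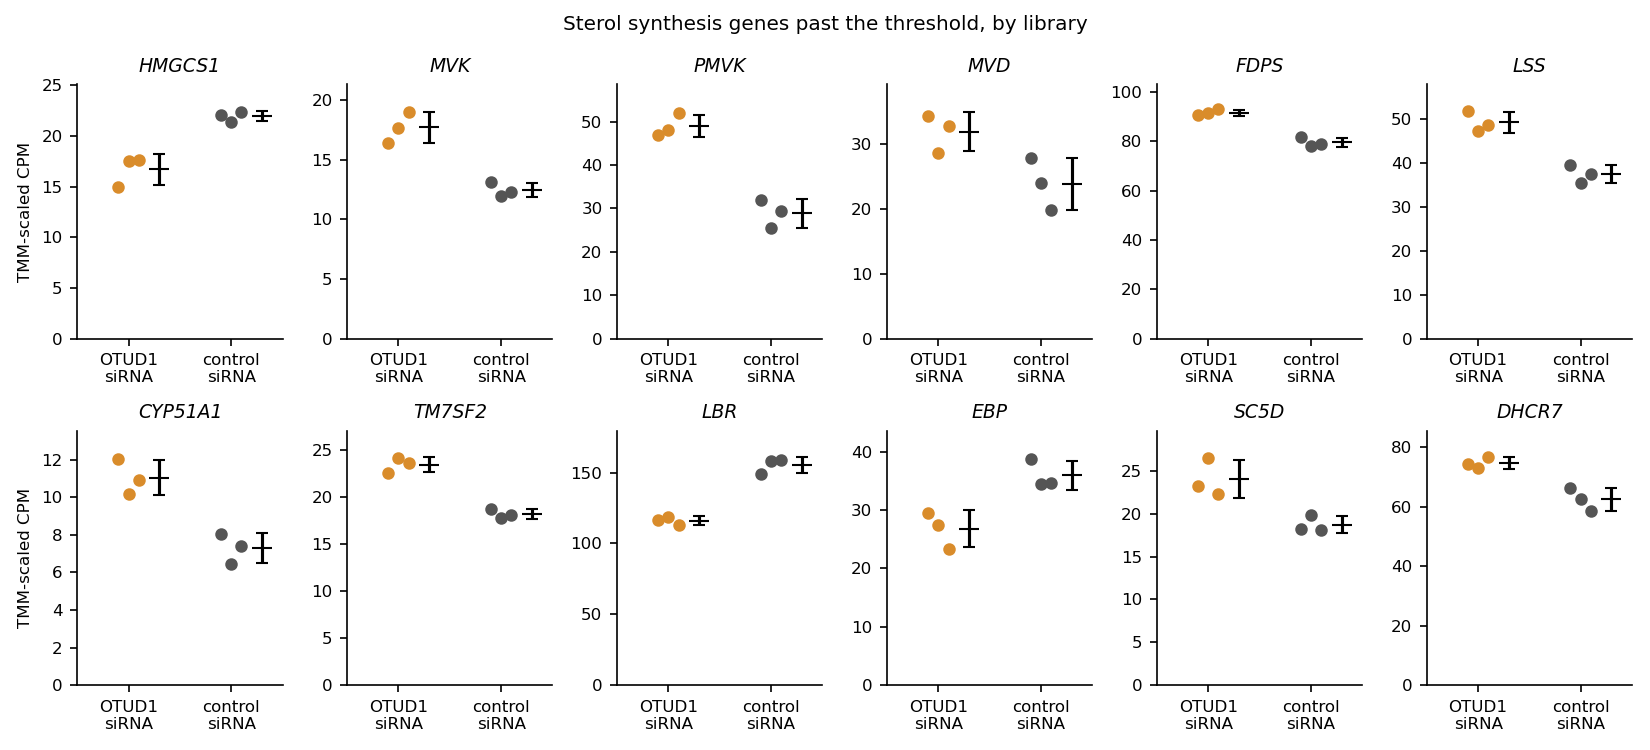
TMM-scaled CPM (y axis, from 0) of the 12 sterol synthesis genes past the threshold in each OTUD1 siRNA library (orange) and control siRNA library (grey), with mean and SD of the 3 libraries in black. HMGCS1, LBR and EBP are lower and the other 9 higher in all 3 OTUD1 siRNA libraries.

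Among the members, ACLY at the entry of the pathway, ELOVL5 and ELOVL6 of elongation and ACSL1, ACSL3 and ACSL4 of activation fell. The desaturases FADS1 and FADS2 rose slightly. Genes of the same steps that are no members went both ways, as given below. ACLY (ENSG00000131473.16, hg38 chr17:41866908-41930542, minus strand) splits citrate into the cytosolic acetyl-CoA that both pathways use. It was the most abundant member per length in both groups, at 85.9 ± 0.724 CPM per kilobase in OTUD1 siRNA libraries and 142.9 ± 2.75 in control libraries. ACLY had 452, 444 and 449 CPM in the OTUD1 siRNA libraries, against 760.1, 731 and 745 CPM in the control libraries, and fell 1.66-fold (log2 fold change -0.73, SE 0.028, adjusted p = 5.61e-19). ACSS2, which makes acetyl-CoA from acetate, averaged 31.2 ± 1.22 CPM in OTUD1 siRNA libraries and 31.1 ± 1.47 CPM in control libraries and did not pass (95% interval of the log2 fold change -0.13 to 0.14).

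The committed enzymes changed little. ACACA, the acetyl-CoA carboxylase, averaged 92.7 ± 2.38 CPM in OTUD1 siRNA libraries and 89.5 ± 6.30 CPM in control libraries and did not pass (log2 fold change 0.053). FASN, the fatty acid synthase, averaged 167 ± 6.94 CPM in OTUD1 siRNA libraries and 180.2 ± 1.16 CPM in control libraries. It was 1.08-fold lower (adjusted p = 0.010), but its log2 fold change of -0.11 turned to 0.017 with library totals and 0.019 after quantile normalization, so its direction depends on the scaling. Without OTUD1 siRNA replicate 2, FASN did not pass either (-0.086, adjusted p = 0.0821). SCD, the stearoyl-CoA desaturase, averaged 80.1 ± 2.50 CPM in OTUD1 siRNA libraries and 95.6 ± 7.26 CPM in control libraries and fell 1.20-fold.

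Both elongases among the members fell. ELOVL6 (ENSG00000170522.9, hg38 chr4:110045846-110199199, minus strand), which extends palmitate, had 5.61, 6.31 and 6.56 CPM in the OTUD1 siRNA libraries, against 16.8, 14.9 and 16.3 CPM in the control libraries. It fell 2.60-fold (log2 fold change -1.38, SE 0.11, adjusted p = 6.85e-12). ELOVL5, which extends polyunsaturated fatty acids, had 134, 140.2 and 129.8 CPM in the OTUD1 siRNA libraries, against 239, 236 and 240.1 CPM in the control libraries, and fell 1.77-fold (log2 fold change -0.82, SE 0.036, adjusted p = 1.27e-17). For both, the groups were separated by several times the spread within a group.

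The desaturases FADS1 and FADS2, which act beside ELOVL5 on polyunsaturated fatty acids and are neighbours on chromosome 11, went the other way. FADS1 averaged 67.7 ± 0.808 CPM in OTUD1 siRNA libraries and 60.3 ± 1.45 CPM in control libraries and rose 1.12-fold (adjusted p = 0.00370). FADS2 averaged 19.5 ± 1.48 CPM in OTUD1 siRNA libraries and 16.6 ± 1.33 CPM in control libraries and rose 1.17-fold (adjusted p = 0.0276). FADS2 lost its call with DESeq2 (adjusted p = 0.0996), without OTUD1 siRNA replicate 3 (0.148), without control siRNA replicate 1 (0.0772) and without control siRNA replicate 3 (0.119). The exons of FADS1 and FADS2 overlap on opposite strands, and the strand setting of the counting is not given, so reads in the overlap cannot be assigned to either.

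All 3 long-chain acyl-CoA synthetases among the members fell, the enzymes that activate fatty acids for use in lipids or oxidation. ACSL3, found on lipid droplets, had 41.1, 40.5 and 38.5 CPM in the OTUD1 siRNA libraries, against 66.4, 64.2 and 61.8 CPM in the control libraries, and fell 1.60-fold (SE 0.054 on the log2 scale). ACSL4, which prefers arachidonate, had 56.3, 60.02 and 55.2 CPM in the OTUD1 siRNA libraries, against 81.5, 85.8 and 86.5 CPM in the control libraries, and fell 1.48-fold (SE 0.049). ACSL1 had 45.7, 44.6 and 43.7 CPM in the OTUD1 siRNA libraries, against 64.1, 64.4 and 66.6 CPM in the control libraries, and fell 1.45-fold (SE 0.051). Together they summed to 142 ± 3.99 CPM in OTUD1 siRNA libraries and 214 ± 1.53 CPM in control libraries, 66.4% of control. The sum over all 12 fatty acid genes was 1189 ± 0.679 CPM in OTUD1 siRNA libraries and 1687 ± 12.1 CPM in control libraries, and without ACLY 741 ± 4.46 and 941 ± 12.5 CPM.

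**Figure D5:**
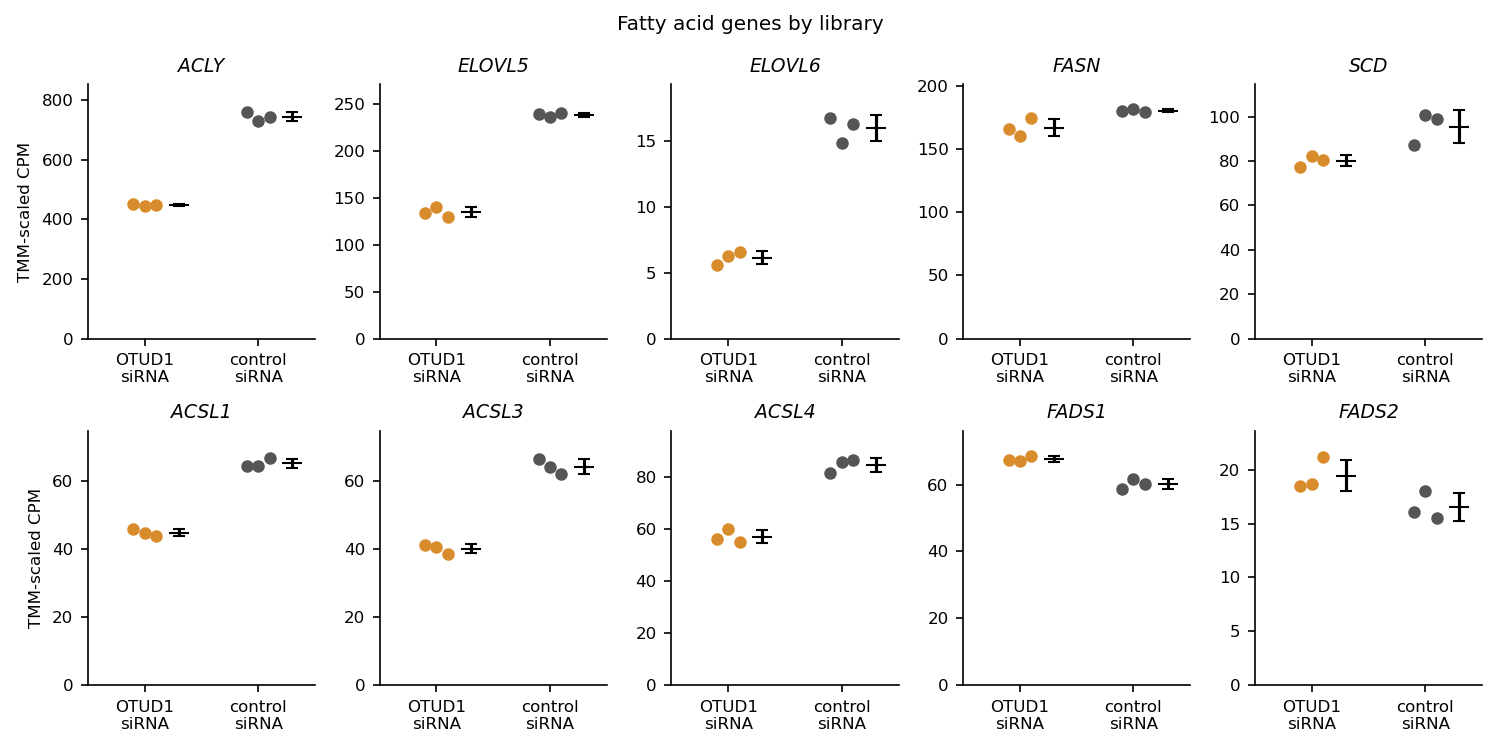
TMM-scaled CPM (y axis, from 0) of 10 fatty acid genes in each OTUD1 siRNA library (orange) and control siRNA library (grey), with mean and SD of the 3 libraries in black. ACLY, both ELOVL genes and the 3 ACSL genes are clearly lower after OTUD1 siRNA; FASN, FADS1 and FADS2 differ little.

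A 7-letter sequence in the 3′ UTR, CAAACAA, had been tied to lower mRNA in an earlier analysis of these libraries, and 4 members carry it: ELOVL6, INSIG2, ELOVL5 and HMGCS1. All 4 fell. The sites are shown as 29 bases around the first match in the GENCODE 29 principal transcript, on the strand of the mRNA, with the match in capitals.
ELOVL6: ctaatcaaaggCAAACAAaggctattaac
INSIG2: aaagccaaaaaCAAACAAacaaaaagcat
ELOVL5: tttttatacagCAAACAAaaagtcaattt
HMGCS1: aaaaacaacaaCAAACAAaactatcacac

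ELOVL6 and INSIG2 have 2 matches each and ELOVL5 and HMGCS1 have 1, in 3′ UTRs of 5492, 1706, 1728 and 1736 bases. The 2 matches of INSIG2 overlap in 1 run, and the second begins within the capitals shown. None of the 14 members that rose and none of the 12 that did not pass carries it, while ABCA1, ACLY and the ACSL genes fell without it. Of all tested genes with a 3′ UTR, 14.0% carry it, and of the 41 members 9.76%. Among all genes with the match 53.8% fell and 17.2% rose, and among genes without it 32.6% fell and 30.7% rose. These shares and the fall of the 4 members come from the same libraries in which the sequence was tied to lower mRNA. They are therefore no separate test of it. Genes with the match have longer 3′ UTRs, with a median of 2976 bases against 934 without it. The sequence of the siRNA was not used here, and whether the match has a part in the decrease of these 4 genes was not tested.

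Other lipid genes, in 7 lists of 106 genes that are no members, placed these results in context. Of 103 tested, 39 rose and 33 fell, together 69.9%, beside 60.4% of all genes. With library totals 52 rose and 29 fell. In fatty acid oxidation, 10 of 16 tested genes rose and 1 fell (median log2 fold change 0.20), where 29.3% of all genes rose and 31.1% fell. The short-chain acyl-CoA dehydrogenase ACADS averaged 48.5 CPM in OTUD1 siRNA libraries and 28.0 CPM in control libraries (log2 fold change 0.79, SE 0.061). The carnitine carrier SLC25A20 had a log2 fold change of 0.61 (SE 0.086), and ETFDH, which passes electrons from these dehydrogenases to ubiquinone, one of 0.59 (SE 0.074).

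In the LXR list, 5 of 7 genes rose and 1 fell (median 0.35), beside the same shares of all genes. NR1H3, which encodes LXR alpha, averaged 24.5 CPM in OTUD1 siRNA libraries and 15.6 CPM in control libraries (log2 fold change 0.65, SE 0.10), and the LXR target LPCAT3 had a log2 fold change of 0.57 (SE 0.088). NR1H2, which encodes LXR beta, belongs to the same list and was picked for naming after its value was seen, had one of 0.36 (SE 0.040). The corepressor NCOR1 fell to 96.2 CPM in OTUD1 siRNA libraries, against 172 CPM in control libraries (-0.84, SE 0.042). Of the genes named here as LXR targets, MYLIP and LPCAT3 were thus higher and ABCA1 lower, and no full set of LXR targets was tallied.

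Other fatty acid genes went both ways, with 7 of 24 higher (29.2%) and 8 lower (33.3%). These shares are near those of all genes, 29.3% higher and 31.1% lower. By size, the leading genes were of low count. The transcription factor gene MLXIPL had 38 counts over the OTUD1 siRNA libraries and 6 over the control libraries, a ratio of 5.40 (95% exact counting interval 2.27 to 15.6). ELOVL3 had 15 and 40 counts in OTUD1 siRNA and control libraries, 3.13-fold lower (1.69 to 6.09), and the transporter gene SLC27A3 had a log2 fold change of 1.45 (SE 0.31). Single libraries weigh on both increases. The fitted log2 fold change of MLXIPL was 2.37, and 3.25 without control siRNA replicate 2, 1.81 without control siRNA replicate 3 and 1.44 after quantile normalization. That of SLC27A3 was 2.15 without control siRNA replicate 1 and 1.098 without control siRNA replicate 3. Of the enzymes that complete each round of elongation beside the ELOVL proteins, HSD17B12 fell to 23.6 CPM in OTUD1 siRNA libraries, against 50.6 CPM in control libraries (log2 fold change -1.11, SE 0.066). HACD2, the dehydratase, fell to 17.3 CPM against 37.3 CPM in controls (-1.11, SE 0.074), and TECR, the last reductase, had a log2 fold change of -0.45 (SE 0.046). HACD1 and HACD3 did not pass. ACACB, the carboxylase isoform of the mitochondrial surface, had a log2 fold change of -1.30 (SE 0.091), beside 0.053 for ACACA. The other called genes of this list also went both ways. ELOVL1 (log2 fold change 0.57), SLC27A2 (0.46), SLC27A4 (0.65), SLC25A1 (0.49) and ME1 (0.46) rose. ELOVL2 (-0.46), ELOVL7 (-0.76) and FADS3 (-0.37) fell. Apart from MLXIPL, ELOVL3 and SLC27A3, the genes of this list were singled out after their values were seen.

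Genes of SREBP processing gave 2 of 11 higher and 5 lower (median -0.083). For each list in this paragraph, the shares of all genes to set beside it are 29.3% higher and 31.1% lower. TMEM97 had a log2 fold change of -0.66, PAQR3, a Golgi anchor of the SCAP complex, of -0.42 and AUP1, a partner of INSIG in protein degradation, of 0.39, while the SREBP proteases MBTPS1 and MBTPS2 did not pass. Of 15 genes of sterol trafficking and storage, 4 rose and 6 fell (median 0.019), led by the lysosomal membrane protein LAMP2 (-1.04), the membrane contact protein VAPB (-0.47) and the sterol-binding protein OSBPL2 (0.39). Of 12 genes that use isoprenoids, 4 rose and 5 fell (median -0.050). The farnesyltransferase subunit FNTB had a log2 fold change of -1.20 (SE 0.14), the methyltransferase ICMT of 0.54 and NUS1, of dolichol synthesis, of -0.50. Of 18 glycerolipid genes, 7 rose and 7 fell (median -0.031), led by CDS2 (0.58), LPIN3 (-0.56) and GPAM (-0.55).

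Counts of 10 members could include reads of a neighbour, since their exons overlap those of a gene with at least 100 counts in all. For 9 of these the neighbour lies on the opposite strand (ACAT2, MVK, FDPS, GGPS1, FADS1, FADS2, SREBF1, SREBF2 and NPC1), and GGPS1, TM7SF2 and FADS2 have one on the same strand. Processed or other pseudogenes named after the gene exist for FDPS, CYP51A1, HSD17B7, SCD and FADS2, so their counts are uncertain too. INSIG1, INSIG2, MYLIP, ABCA1, ELOVL5, ELOVL6 and PMVK have neither.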

How the data were processed

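RNA-seq of ACHN cells covered 3 libraries with the OTUD1 siRNA and 3 with a control siRNA. Per the labels' protocols, Trizol was used to extract RNA and a strand-keeping NEBNext kit to make libraries. The submitters' processing notes name hg38 as the genome build. Aligner, counter, strand setting and annotation were not given in the sources used here. The deposited values are whole-number counts per gene symbol, although the table is named for FPKM, and were taken as raw counts.

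Low genes were removed with filterByExpr at its defaults (10 counts in 3 libraries of median size, 15 over all), and the rest were scaled by TMM and compared in R 4.3.3 with edgeR 4.0.16 (glmQLFit and glmQLFTest, two-sided, Benjamini-Hochberg over all 15244 genes tested, threshold 0.05). SEs were derived from fold change and F statistic, and 95% intervals from the same fit. The fit was tested on simulated data in which few genes changed, which does not test the scaling where most genes pass. Coordinates and exon lengths come from GENCODE 29 and promoters from RefSeq. Counting intervals are exact binomial and cover counting error only. A count of 3 corresponds to 0.137 to 0.188 CPM. Between libraries of one group the mean chi-square per gene was 2.05 to 3.73, above sampling noise, so no libraries were merged; this does not show separate cultures.

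The members, lists and the 7-letter 3′ UTR sequence were chosen with earlier results of these data known. Values per library are given for called members with an absolute log2 fold change of at least 0.3 and for the SREBP regulators. From each other list up to 3 called genes with the largest changes are named, besides those marked as picked or singled out after their values were seen. A gene of the fatty acid oxidation list is not reported here. Alternatives covered the filter, the scaling, the tool (DESeq2 1.42.0, limma 3.58.1), the threshold, the replicate number as a block and each library left out.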

Additional observations from a re-analysis of the deposited data

How the results depend on the processing

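Of the 41 members tested, 33 kept their side of the threshold under all 15 alternatives, 27 of 29 called members with the same direction and 6 that never passed; ACAT2, FDFT1, SQLE, ACACA, FASN, FADS2, SREBF2 and NPC1 did not, all with absolute log2 fold changes of at most 0.23. The count of higher fatty acid genes was 2, and 1 with DESeq2 and with a threshold of 0.01. It was 3 with library totals and after quantile normalization, where ACACA passed as well. Leaving out each library in turn gave 1 to 2. The count was 1 without OTUD1 siRNA replicate 3, control siRNA replicate 1 or control siRNA replicate 3, where FADS2 lost its call. The count of higher regulators and transport genes was 3, and 5 with library totals and after quantile normalization, where SREBF2 and NPC1 passed as well. FASN was the 1 called member whose sign turned: it went to 0.017 with library totals and 0.019 after quantile normalization, and NPC1, not called under TMM, went to 0.092 and 0.12 under the same settings and passed. The estimate also crossed 0 in some alternative for ACAT2, IDI1, SQLE, MSMO1, HSD17B7 and ACSS2, none of which passed with the turned sign. Library totals shift all genes upwards by construction, as given above, and the cause of the other changes was not tested. The counts of 9 higher and 3 lower sterol genes became 9 to 11 and 3 to 4 over all alternatives, and the 8 lower fatty acid genes became 7 to 8. Same-numbered libraries did not deviate together (correlations of -0.023 to 0.018, against -0.014 to 0.031 for other numbers). No pairing by number was thus seen, though 3 libraries per group cannot exclude it. With the replicate block, 14 members rose and 15 fell, as without it.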
